A study of Rattus norvegicus with 46 samples.

Results

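Terminal differentiation of the epidermis ends with the cornified envelope, the protein shell that replaces the membrane of a dying keratinocyte and carries the skin barrier. Small precursor proteins are laid under the membrane and joined by transglutaminases, while proteases process the filament proteins of the cell. A set of 9 genes of this programme was followed in rat skin after radiation, with or without a drug that activates the antioxidant factor NRF2. The precursors in the set are Sprr1a, Sprr1b and Sprr3, small proline-rich proteins, and Ivl, involucrin, the early scaffold of the envelope. Tgm1 and Tgm3 are transglutaminases that join the precursors, Casp14 is a caspase of the upper epidermis that takes part in breaking down filaggrin, Flg is filaggrin itself, and Calml3 is a calmodulin-like protein of epithelia. The members were listed by symbol with earlier results of these data known, so they are not an unselected set. The annotation of the array names 1 feature for each of 7 members and none for Sprr1b and Flg, which were not analysed here. The 7 features belong to 23188 features tested.

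The samples were abdominal skin of 9 Sprague-Dawley rats on 46 Clariom S arrays, a whole-transcript microarray with 1 colour per array, and the rats were biopsied repeatedly with 5 mm punches. The baseline group was untreated skin taken on day -10 from 6 of the rats. Biopsies of 3 arms followed on days -4, 1, 3, 7 and 14, with 3 rats a day in irradiated skin with RTA-408, 3 in irradiated skin with the DMSO vehicle and 2 in sham-irradiated skin with vehicle, here called unirradiated. Every arm, the unirradiated included, received injections on days -7, -5, -3 and 0, so that RTA-408 came in addition to the vehicle. The radiation was a 6 MeV electron beam, 40 Gy in 4 fractions of 10 Gy over 8 days, and the biopsies of day -4 fell within that course. The same rats recur from day to day, except that the second unirradiated rat was another animal from day 7 on. The labels give no age or sex. For the unirradiated array of day 1, replicate 2, a description names day 3, and the title, which names day 1, was followed. RTA-408 is a small molecule that activates NRF2, and the target gene Nqo1 was higher with it by 3.88 ± 0.60 (SE) on day -4 and by 3.77 ± 0.60 on day 1 (limma, adjusted p = 0.00255 and 0.00181). Its differences of 1.39, 0.42 and -0.44 on days 3, 7 and 14 did not pass.

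Signals are the log2 values deposited by the authors, and each difference is one of group means on that scale, not a fold change, because the sources do not say how the scale was made. Array medians lay between 6.84 and 6.95, and the medians of the negative control features, which match no rat transcript, between 5.78 and 6.52. Krt14 and Krt1, keratins of basal and of suprabasal keratinocytes, were above the negative control median on 46 of 46 arrays, between 15.88 and 18.87 and between 15.69 and 19.57. Signals of the spike-in controls parted the arrays into 3 sets, I, II and III, of 18, 10 and 18 arrays. The 6 baseline arrays were in set I, and each irradiated group had 1 array in set II and 2 in set I (days -4 and 1) or set III (later days). The array of irradiated vehicle replicate 3 on day 14 stood apart. Its mean over the 10 macrophage markers was 15.3, against 10.5 and 11.7 on the other arrays of its group, and its mean over the 5 suprabasal keratins was 9.09, against 11.14 and 11.02. Day 14 values of irradiated vehicle skin that move with this array are given with and without it, a choice made after its signals were seen. In bulk skin, fewer cells of a type and less RNA per cell cannot be told apart. Groups of 2 or 3 arrays can lie apart without overlap by chance, and the share of all features that did so was not counted. Statements on overlap below are therefore descriptions and not tests.

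Several members lie together in the genome. By the RefSeq annotation of the rat build GRCr8, Sprr1b, Sprr3, Sprr1a, Ivl and Flg are on chromosome 2, in the epidermal differentiation complex, and Tgm3, Casp14, Tgm1 and Calml3 are on chromosomes 3, 7, 15 and 17. The stretch from 250 bases before to 50 bases after the start of transcription is shown for Sprr1a, Tgm1 and Ivl. On day 7 Sprr1a and Tgm1 were called higher in irradiated than in unirradiated vehicle skin, and Ivl was not called. Capitals mark the letters TGANTCA, the core bound by AP-1, the Fos and Jun family of factors that is a known regulator of envelope precursor genes.
Sprr1a, chr2:180752576-180752875, minus strand: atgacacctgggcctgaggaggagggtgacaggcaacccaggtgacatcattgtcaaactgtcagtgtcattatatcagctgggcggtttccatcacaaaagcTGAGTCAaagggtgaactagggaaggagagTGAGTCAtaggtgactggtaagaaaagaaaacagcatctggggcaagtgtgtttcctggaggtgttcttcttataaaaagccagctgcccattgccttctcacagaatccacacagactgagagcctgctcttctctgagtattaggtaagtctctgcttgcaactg
Tgm1, chr15:33174218-33174517, minus strand: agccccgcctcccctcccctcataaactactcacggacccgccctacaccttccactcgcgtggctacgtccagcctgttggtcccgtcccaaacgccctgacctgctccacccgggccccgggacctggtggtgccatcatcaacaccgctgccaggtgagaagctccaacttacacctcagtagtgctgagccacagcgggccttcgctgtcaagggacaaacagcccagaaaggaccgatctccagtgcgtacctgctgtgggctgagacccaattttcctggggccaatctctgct
Ivl, chr2:180846529-180846828, minus strand: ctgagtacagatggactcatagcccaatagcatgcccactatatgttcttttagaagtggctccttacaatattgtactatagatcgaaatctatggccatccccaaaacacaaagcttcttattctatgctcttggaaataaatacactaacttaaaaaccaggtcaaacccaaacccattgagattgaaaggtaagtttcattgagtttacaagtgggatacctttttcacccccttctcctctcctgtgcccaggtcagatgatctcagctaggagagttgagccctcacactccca
The Sprr1a stretch holds TGANTCA at 2 places, at -147 and -117 from the start. Of 33469 rat promoter stretches of this length, 7.33% hold it on either strand. Among the 8 members with a stretch in the RefSeq table, which has no entry for Sprr3, it was otherwise found only in that of Sprr1b, at -116. The core of the antioxidant response element, TGACNNNGC, which NRF2 binds, was found in 12.1% of all stretches and, among the members, only in that of Sprr1a, on the reverse strand at -149, where it overlaps the first TGANTCA. These are matches of letters, searched on both strands.

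In untreated skin most members were bright. Of all features tested, 99.5% were dimmer than Sprr1a at baseline, 98.4% than Calml3, 97.9% than Ivl, 94.1% than Tgm3, 92.9% than Tgm1 and 73.4% than Casp14. Sprr3, which in human and mouse is a gene of the oesophagus and oral mucosa more than of skin, was dimmer than the negative control median on 45 of 46 arrays and had a higher signal, 7.68, only on the array of irradiated vehicle replicate 3 on day 14. No difference is given for Sprr3, although its fitted values for irradiated vehicle skin against baseline passed the test on days 7 and 14 (limma, adjusted p = 0.0212 and 0.00562). Its signals there were 4.84, 4.98 and 5.67 on day 7 and 3.93, 4.57 and 7.68 on day 14, against 3.70 to 4.02 at baseline.

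**Figure D1:**
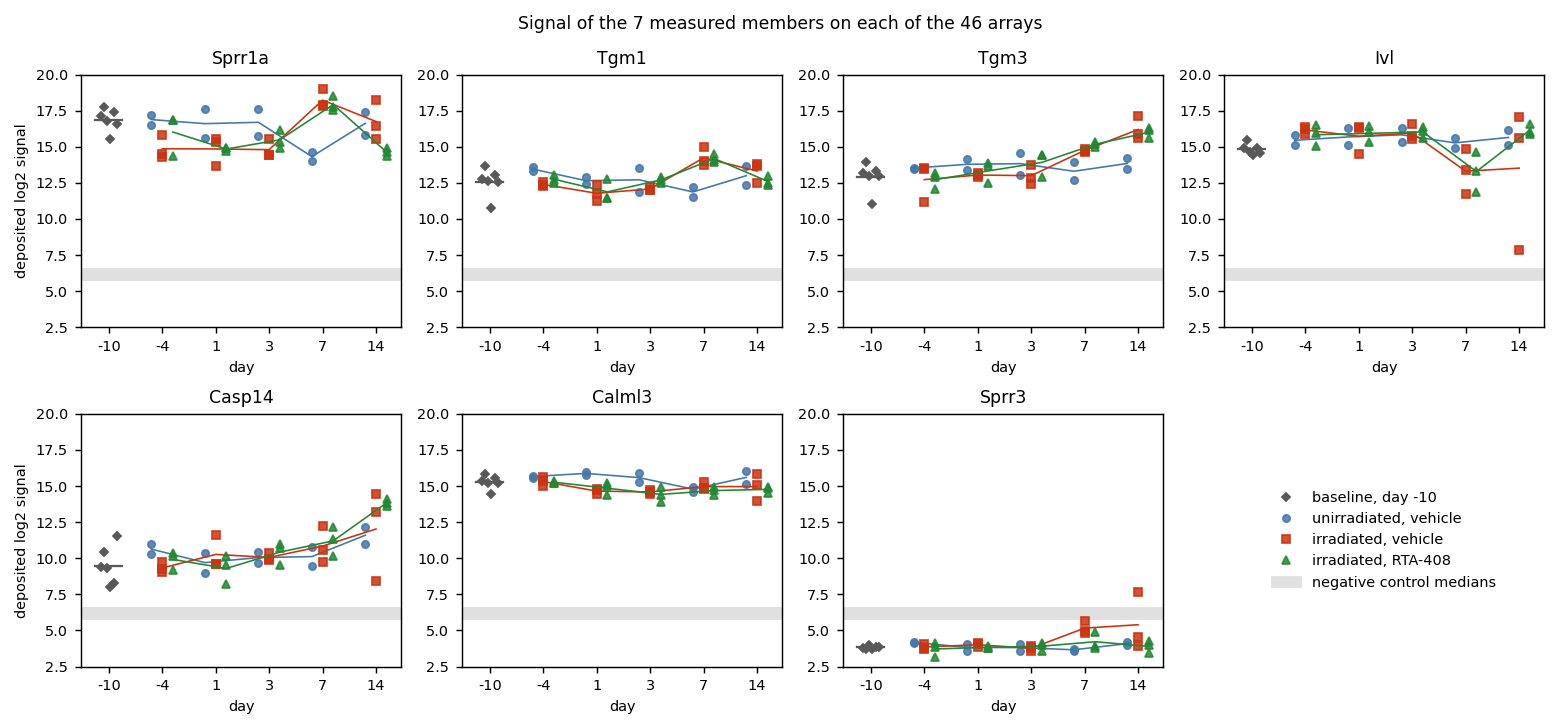
Deposited log2 signal (vertical axes) of the 7 measured members by day (horizontal axes), with 1 point per array, lines through the group means, a bar at the baseline mean, and a grey band over the range of the negative control medians, 5.78 to 6.52. Sprr1a and Tgm1 were highest in irradiated skin on day 7, Tgm3 on day 14, and irradiated vehicle replicate 3 on day 14 lies at 7.86 for Ivl and 8.44 for Casp14.

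Irradiated and unirradiated vehicle skin were compared on each day, which asks what radiation did to these genes. Sprr1a was lower in irradiated skin on days -4, 1 and 3 by differences that did not pass the test. It was called higher on day 7, as was Tgm1. On day 14 Tgm3 was the member called. Called members, at an adjusted p under 0.05 over all features, were 0 of 7 on days -4, 1 and 3, 2 of 7 on day 7 and 1 of 7 on day 14, all higher. Of all features, 7.42%, 2.10%, 1.30%, 4.02% and 6.96% were called on these days in either direction, and 2.69% and 4.43% were called higher on days 7 and 14. The median difference of the members was -0.80, -0.74, -0.63, 1.45 and 0.32 on the 5 days, beside 0.07, -0.03, 0.05, -0.06 and 0.01 for all features. Without the array that stood apart, 0 of 7 members were called on day 14, where 1.07% of all features were called higher and 0.444% lower, and the median of the members was 0.17. These medians count Sprr3, whose group means were at the level of the negative controls on every day.

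On day 7, Sprr1a stood at 17.90, 17.81 and 18.97 in irradiated vehicle skin and at 14.02 and 14.62 in unirradiated skin. The groups did not overlap, and the difference was 3.91 ± 0.76 (SE; limma, adjusted p = 0.00294). The irradiated arrays were above the baseline range, which ran from 15.57 over a median of 16.97 to 17.72, while both unirradiated arrays were below it. Against baseline, the same 2 unirradiated arrays were lower by 2.55 ± 0.68 (limma, adjusted p = 0.0359), and irradiated vehicle skin differed by 1.36 ± 0.59 (adjusted p = 0.133). The day 7 call of Sprr1a between irradiated and unirradiated skin was kept under 14 of 14 alternatives, with an adjusted p of at most 0.0484, and was 4.12 within spike-in set III (adjusted p = 0.0387). The call of unirradiated skin against baseline was kept under 8 of 16 alternatives, with differences of -2.91 to -2.25 over all of them. It was lost with the spike-in set as a block and with the compared groups alone. It was also lost without baseline replicate 1, 2, 3 or 5 and without either unirradiated array. Both unirradiated arrays were in set III and all baseline arrays in set I, so this comparison crosses the sets.

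The unirradiated arrays of day 7 were also low in another compartment. The 13 measured markers of the hair follicle had a mean of 8.09 and 5.73 on them, between 11.8 and 16.4 at baseline, and between 5.46 and 5.59 in irradiated vehicle skin on that day. Of these 13 markers, 10 fell below baseline in unirradiated skin on day 7, where 1.85% of all features were called lower and the list's median difference was -9.06, beside 0.06 for all features. The part of the hair follicle in the Sprr1a difference was not tested.

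Tgm1, the membrane-bound transglutaminase that assembles the envelope, stood on day 7 at 14.00, 13.72 and 14.97 in irradiated vehicle skin and at 11.50 and 12.24 in unirradiated skin. The irradiated arrays were all higher, by 2.37 ± 0.55 (limma, adjusted p = 0.0104). Its baseline arrays lay between 10.79 and 13.68 with a median of 12.70, so that the unirradiated arrays were within the baseline range and the irradiated ones above it. The Tgm1 call of day 7 was lost within set III (difference 2.62, adjusted p = 0.0529), without irradiated vehicle replicate 3 (2.00, adjusted p = 0.0818) and without either unirradiated array (adjusted p = 0.139 and 0.0565).

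Tgm3, the transglutaminase of the granular layer and of the hair follicle, was called on day 14 and not on day 7, while the F-test of its change over the days did not pass (adjusted p = 0.0623). On day 7 its signals were 14.65, 14.87 and 14.72 in irradiated vehicle skin and 12.69 and 13.91 in unirradiated skin, a difference of 1.45 ± 0.65 that did not pass (limma, adjusted p = 0.229). On day 14 they were 15.61, 17.12 and 15.86 against 14.25 and 13.43, and the difference of 2.35 ± 0.65 passed (adjusted p = 0.0234). The groups did not overlap on either day. Within set III the day 14 difference was 2.65 (adjusted p = 0.0254). That call was lost without irradiated vehicle replicates 2 and 3 (adjusted p = 0.107 and 0.0675), without either unirradiated array (0.115 and 0.191) and with the compared groups fitted alone (0.755).

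**Figure D2:**
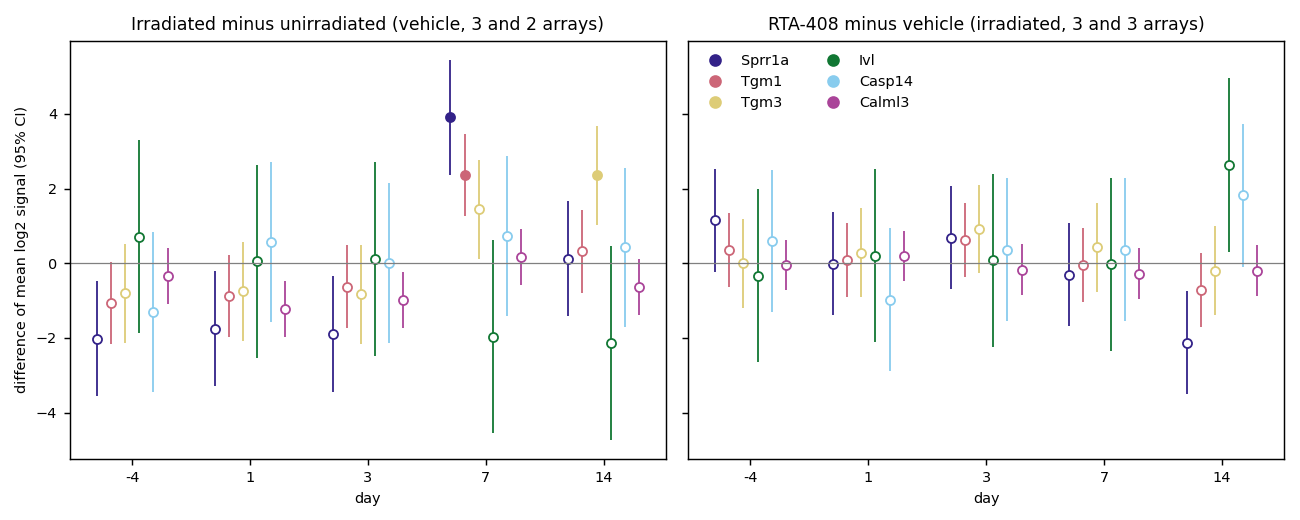
Difference of mean log2 signal (vertical axis) with its 95% confidence interval by day (horizontal axis) for 6 members, irradiated minus unirradiated vehicle skin on the left and RTA-408 minus vehicle in irradiated skin on the right. Filled points passed an adjusted p of 0.05: Sprr1a at 3.91 and Tgm1 at 2.37 on day 7 and Tgm3 at 2.35 on day 14 on the left, and none on the right.

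Ivl did not follow the other precursor. On day 7 it stood at 14.82, 13.39 and 11.70 in irradiated vehicle skin and at 14.90 and 15.63 in unirradiated skin. All irradiated arrays were below both unirradiated ones, with a wide spread, and the difference of -1.96 ± 1.28 did not pass (limma, adjusted p = 0.451). On day 14 its signals were 15.61, 17.08 and 7.86 against 16.16 and 15.13, so that the mean difference of -2.13 ± 1.28 (adjusted p = 0.411) rested on the array of replicate 3 and was 0.70 without it (adjusted p = 0.802). It was called without replicate 2 (-3.91, adjusted p = 0.0453). The array of replicate 3 also entered the error of Ivl on the other days, which was 1.28 with it and 0.679 without. With that array left out of all groups, an alternative chosen after seeing the data, Ivl on day 7 was still not called against unirradiated skin (adjusted p = 0.0796), and it was lower than baseline by 1.52 with vehicle and by 1.54 with RTA-408 (adjusted p = 0.0432 and 0.0368).

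Before day 7 the direction for Sprr1a was the opposite. Its differences between irradiated and unirradiated vehicle skin were -2.02 ± 0.76, -1.75 ± 0.76 and -1.90 ± 0.76 on days -4, 1 and 3, with no overlap of the arrays on any of these days (limma, adjusted p = 0.101, 0.221 and 0.238). On day 3, as an example, the signals were 14.42, 15.56 and 14.41 in irradiated skin and 15.78 and 17.61 in unirradiated skin. The second unirradiated rat was another animal from day 7 on. A change between days 3 and 7 cannot be fully told apart from this change of rat. Whether the difference between irradiated and unirradiated skin varied between days was tested with an F-test over the 5 days. It passed for Sprr1a (F = 11.06, adjusted p = 0.00603) and Tgm1 (F = 6.70, adjusted p = 0.0339), where 2.16% of all features passed, and did not for Tgm3 (adjusted p = 0.0623). The result for Sprr1a had an adjusted p of 0.0515 without the second unirradiated replicate. That for Tgm1 was lost without irradiated vehicle replicate 2 or 3 or either unirradiated replicate on all days, with an adjusted p of up to 0.224.

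Casp14 and Calml3 were not called on any day. Casp14 differed between irradiated and unirradiated vehicle skin by between -1.31 and 0.73 over the days, with a standard error of 1.05. The array that stood apart entered this error on every day. The SD of Casp14 was 3.17 in the group of that array and between 0.24 and 1.32 in the other groups. The day 14 difference of Casp14 was 0.43 with all arrays (limma, adjusted p = 0.908). It was 2.22 without the array that stood apart (adjusted p = 0.231), when both irradiated arrays lay above both unirradiated ones. Calml3 was 14.44, 14.77 and 14.73 in irradiated skin on day 1, below both unirradiated arrays, of which the lower was at 15.75. The difference of -1.23 ± 0.37 did not pass (limma, adjusted p = 0.0668), although the arrays did not overlap, and passed with the array that stood apart left out of the fit (adjusted p = 0.0298).

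Against the untreated skin of day -10, members of the irradiated arms were called on different days. Sprr1a fell early, Tgm1 and Tgm3 rose on day 7, and Tgm3 and Casp14 were higher on day 14. The 2 irradiated arms share the 6 baseline arrays, so their values are given side by side and are not independent. Called members of 7, counting Sprr3, were 1, 1, 1, 3 and 3 with vehicle and 0, 1, 0, 2 and 3 with RTA-408 on days -4, 1, 3, 7 and 14. Of all features, 10.7%, 9.72%, 8.54%, 14.0% and 15.4% were called with vehicle and 5.79%, 11.0%, 9.69%, 15.8% and 10.2% with RTA-408. Without Sprr3 the vehicle counts of days 7 and 14 were 2 and 2 of the 6 members above the negative controls. Without the array that stood apart, 2 of 7 were called with vehicle on day 14, where 4.67% of all features were called higher and 2.2% lower. From day 3 on the comparison crosses the spike-in sets, since the baseline arrays were all in set I, and no within-set value can be had.

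Sprr1a was lower than baseline in irradiated vehicle skin by 2.01 ± 0.59 on day -4, 2.02 ± 0.59 on day 1 and 2.07 ± 0.59 on day 3 (limma, adjusted p = 0.0229, 0.0232 and 0.0218). Its signals were 14.26, 15.83 and 14.50 on day -4 and 15.52, 15.35 and 13.67 on day 1, and the lowest baseline array was at 15.57. With RTA-408 the differences were -0.85 (adjusted p = 0.475), -2.03 (adjusted p = 0.0197) and -1.39 (adjusted p = 0.145) on these days. The RTA-408 arrays of day -4 were split, with 16.87 and 16.83 inside the baseline range and 14.35 below it. The 16.87 and 16.83 were arrays of set I, from the rats of baseline replicates 1 and 2. The 14.35 was an array of set II, from a rat with no baseline array. Each of these calls was lost with the spike-in set as a block, the lowest adjusted p being 0.0505 for RTA-408 on day 1. Within set I the difference was -1.70 (adjusted p = 0.130) for vehicle on day -4, -2.27 (0.0422) for vehicle on day 1 and -2.06 (0.0538) for RTA-408 on day 1. The calls with vehicle were also lost without replicate 1 or 3 on days -4 and 3 and without replicate 3 or baseline replicate 2 on day 1, and the call with RTA-408 without each of its 3 arrays in turn.

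On day 7 both transglutaminases were higher than baseline in both irradiated arms. Tgm1 was higher by 1.67 ± 0.42 with vehicle and by 1.61 ± 0.42 with RTA-408 (limma, adjusted p = 0.00572 and 0.00660). Its RTA-408 arrays were at 13.97, 14.10 and 14.47, all above the highest baseline array. Tgm3 was higher by 1.84 ± 0.51 with vehicle and by 2.26 ± 0.51 with RTA-408 (adjusted p = 0.0110 and 0.00147), with RTA-408 arrays at 15.00, 15.19 and 15.33 and a baseline range of 11.03 to 13.94. With the spike-in set as a block these 4 calls were lost, at differences of 1.74, 1.68, 1.20 and 1.62 (adjusted p between 0.128 and 0.465). Those of Tgm1 were also lost without replicate 3 of the arm and with the compared groups fitted alone. Replicates 1 and 2 of the RTA-408 arm are the rats of baseline replicates 1 and 2, and once replicate numbers entered the model as a block, Tgm1 with RTA-408 was not called on day 7 (1.15, adjusted p = 0.0595).

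By day 14 Tgm1 had returned to within the baseline range in the RTA-408 arm, with signals of 12.32, 12.99 and 12.50, and stood at 12.49, 13.78 and 13.68 with vehicle. Tgm3 was higher still. It reached 15.61, 17.12 and 15.86 with vehicle and 15.60, 16.27 and 16.13 with RTA-408, differences from baseline of 3.28 ± 0.51 and 3.09 ± 0.51 (limma, adjusted p = 1.76e-05 and 8.41e-05). The call with vehicle was kept under 16 of 16 alternatives, and that with RTA-408 was lost with the spike-in set as a block (2.45, adjusted p = 0.0852). Tgm3 is also active in the hair follicle. On day 14 all 13 measured follicle markers were lower than baseline with vehicle and 11 of 13 with RTA-408, where 5.96% and 4.71% of all features were called lower. With vehicle 6 of 13 were lower without the array that stood apart. The part of the follicle in the Tgm3 difference was not tested.

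Casp14 was the other gene of day 14. Its signals were 13.61, 13.82 and 14.09 with RTA-408, above the whole baseline range of 7.99 to 11.51, a difference of 4.36 ± 0.81 (limma, adjusted p = 0.000425) that was kept under 17 of 17 alternatives. With vehicle they were 13.19, 14.45 and 8.44. The mean difference of 2.54 ± 0.81 passed (adjusted p = 0.0276), and it was 4.34 without the array of replicate 3 (adjusted p = 0.000129). It was lost under 7 of 16 alternatives, among them vehicle replicate 1 or 2 left out (adjusted p = 0.150 and 0.371). Unirradiated skin on day 14 was at 12.18 and 11.00, 2.11 ± 0.94 above baseline (adjusted p = 1), in a comparison where 0% of features were called.

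On day 14 Sprr1a was called against baseline with RTA-408 and not with vehicle. The arms themselves did not differ past the threshold (adjusted p = 0.232). With RTA-408 Sprr1a was at 14.38, 14.60 and 14.89, below all baseline arrays, by 2.24 ± 0.59 (limma, adjusted p = 0.0105), and the call was lost without RTA-408 replicate 1 and with the spike-in set as a block (highest adjusted p = 0.236). With vehicle it was at 15.57, 16.41 and 18.26, a difference of -0.12 ± 0.59 (adjusted p = 0.938). The 18.26 was the array that stood apart, while vehicle replicates 1 and 2 were below the baseline median of 16.97. The vehicle difference without that array is not given here. Calml3 was not called on any day, its lowest adjusted p being 0.0568 for RTA-408 on day 3, with signals of 14.94, 13.92 and 14.41 against 14.42 to 15.84 at baseline. That difference was called with the replicate number as a block (-1.04, adjusted p = 0.0347).

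**Figure D3:**
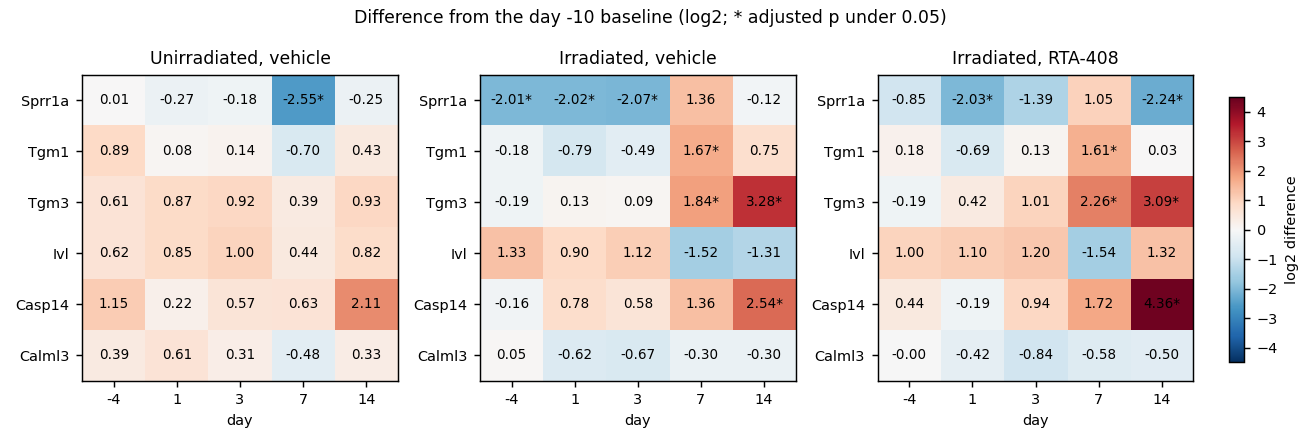
Difference of the mean log2 signal from the day -10 baseline for 6 members (rows) by day (columns) in the 3 arms, with the value in each cell, colour from blue (lower) to red (higher), and a star at an adjusted p under 0.05. Tgm3 reached 3.28 and 3.09 on day 14 in the irradiated arms, and Sprr1a was at -2.55 in unirradiated skin on day 7.

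The group means of Ivl lay on the other side of baseline from those of Sprr1a in both irradiated arms on days -4 to 7 and with RTA-408 on day 14, and Ivl was not called against baseline on any day in either arm when all arrays were fitted. Its baseline signals ran from 14.41 over a median of 14.79 to 15.47. In irradiated vehicle skin they were 15.92, 16.22 and 16.34 on day -4, all above that range, a difference of 1.33 ± 0.99 (limma, adjusted p = 0.450). Within spike-in set I, where the array that stood apart does not enter, Ivl was higher by 1.46 with vehicle on day -4, by 1.50 with vehicle on day 1 and by 1.40 with RTA-408 on day 1 (adjusted p = 0.0265, 0.0180 and 0.0195). Unirradiated skin was also above baseline, by 0.62, 0.85 and 1.00 on days -4, 1 and 3, with no call. On day 7 the RTA-408 arrays were at 14.67, 13.34 and 11.84, with 2 of them below the baseline range and 1 within it. On day 14 they were at 16.01, 15.87 and 16.57, all above it, a difference of 1.32 ± 0.99 (adjusted p = 0.455).

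In unirradiated vehicle skin, 0 of 7 members were called against baseline on days -4, 1, 3 and 14 and 1, Sprr1a, on day 7. Of all features, 0.0173%, 0.315%, 0%, 2.71% and 0% were called on days -4, 1, 3, 7 and 14. Members with an unadjusted p under 0.05 numbered 0 on days -4, 1 and 3 and 1 on day 14, Casp14, where 9.12%, 13.5%, 4.56% and 4.24% of all features had one.

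RTA-408 was compared with vehicle in irradiated skin, which asks whether the drug changed these genes. No member was called on any day (0 of 7 on each), where 0.0474%, 0.0733%, 0.00431%, 0% and 0% of all features were called in limma. At an unadjusted p under 0.05 there were 0 members on days -4, 1 and 3, 1 on day 7 and 3 on day 14, with 976, 658, 797, 613 and 2904 of the 23188 features. The member of day 7 was Sprr3, which was also among the 3 of day 14. Its group means were at the level of the negative controls in both arms on both days. On day 7, when Sprr1a and Tgm1 were called higher in irradiated than in unirradiated vehicle skin, the arms were close. Sprr1a stood at 17.54, 17.72 and 18.49 with RTA-408 and at 17.90, 17.81 and 18.97 with vehicle, a difference of -0.31 with a 95% interval of -1.69 to 1.07. For Tgm1 the difference was -0.06 (-1.05 to 0.94), for Tgm3 0.43 (-0.76 to 1.61) and for Ivl -0.02 (-2.34 to 2.30). These intervals do not show that the arms were alike.

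The widest differences between the arms fell on day 14. Sprr1a was lower with RTA-408 by 2.12 ± 0.68, with no overlap of the arrays (limma, adjusted p = 0.232). Ivl was higher by 2.63 ± 1.14 (adjusted p = 0.337) and Casp14 by 1.82 ± 0.94 (adjusted p = 0.421). Each of these rested in part on vehicle replicate 3. Without it, Sprr1a differed by -1.36, Ivl by -0.20 and Casp14 by 0.02 (adjusted p = 0.999 for each), so that the direction for Ivl turned. Without vehicle replicate 1, Sprr1a differed by -2.71 and was called (adjusted p = 0.0236), as was Sprr3, and 1344 features were called in place of 0. The F-test of the drug effect over the days called 0 of 7 members, where 0.0129% of all features passed, and gave Sprr1a an unadjusted p of 0.0184 and an adjusted p of 0.904.

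The means of the 5 days were also compared between rats, 3 against 3. No member was called, where 0% of features were called. Sprr1a averaged 15.78 in the rats that received the drug (SD 0.10, n = 3) and 15.90 in those that received vehicle (SD 0.33, n = 3), and the difference of -0.12 had a 95% interval of -0.51 to 0.27. The differences of the other members above the negative controls lay between -0.10 for Calml3 and 0.51 for Ivl. Without the array that stood apart, the mean over the days of the difference between the arms was -0.05 for Ivl, 0.03 for Sprr1a and 0.08 for Casp14, in place of 0.51, -0.12 and 0.43, so that the direction for Ivl and Sprr1a turned.

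The members did not form a single profile. Over the 16 group means, which share rats and arrays, Sprr1a and Tgm1 correlated with r = 0.89 and Casp14 and Tgm3 with r = 0.84, while Ivl ran against Sprr1a (r = -0.73) and Tgm1 (r = -0.75). The profiles most like that of Sprr1a, by Pearson r over the group means, were Nop9 (0.957), Tgfa, the growth factor TGF-alpha (0.941), Gjb6, the gap junction protein connexin 30 (0.928), Sec23b, a coat protein of vesicles leaving the endoplasmic reticulum (0.926), and Tuba1c, an alpha-tubulin (0.918). The group means of Gjb6 ran from 8.23 in RTA-408 skin on day 1 to 12.58 in irradiated vehicle skin on day 7. Closest to Ivl were Clca5 (0.917), Them5 (0.911), the signalling ligand Wnt3 (0.906), Sccpdh (0.906) and Sh3rf2 (0.901). The group mean of Clca5 was lowest, at 11.48, in RTA-408 skin on day 7. Without the array that stood apart, 2 of the 5 profiles closest to Ivl and 4 of the 5 closest to Sprr1a were shared with these. Closest to the mean of the 7 members, each scaled to the same spread, were Ephx3 (0.952), an epoxide hydrolase, Rab25 (0.936), Erh (0.931), Tmem79 (0.923) and Mpzl3 (0.913). Sprr3, whose group means were at the level of the negative controls, weighs as much in that mean as each other member.

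Other genes of the envelope moved in both directions. Of 66 listed entries 19 had a feature. Between irradiated and unirradiated vehicle skin, 3 were higher and 2 lower on day -4, none passed on days 1 and 3, 3 were higher and 1 lower on day 7, and 1 was higher and 2 lower on day 14. Of all features, 3.23%, 1.20%, 0.656%, 2.69% and 4.43% were called higher and 4.19%, 0.901%, 0.647%, 1.33% and 2.53% lower on the 5 days. Higher on day 7 were Cnfn, cornifelin, by 3.15, Trex2, a nuclease of keratinocytes, by 2.49, and Lce1f, a late envelope protein, by 1.77 (limma, adjusted p = 0.0103, 0.0276 and 0.0146). Lce1m, of the same late envelope family, fell by 3.08 (adjusted p = 0.0411). Lower on day 14 were Cst6, a protease inhibitor of the envelope pathway, by 2.40, and Padi3, an enzyme that converts arginine to citrulline and is also among the hair follicle markers, by 4.56 (adjusted p = 0.00820 and 0.0357). Neither was called without the array that stood apart (adjusted p = 0.126 and 0.252), when 1 of the 19 was higher and 0 lower. The list's median difference on day 7 was 0.11, beside -0.06 for all features. Between RTA-408 and vehicle, 0 of 19 were called on any day.

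Against baseline the envelope genes also moved in both directions. With vehicle 7, 6, 6, 8 and 6 were higher and 2, 2, 2, 2 and 4 lower on the 5 days, and with RTA-408 5, 7, 8, 8 and 10 were higher and 0, 2, 2, 2 and 2 lower. With vehicle on day 14, 9 were higher and 1 lower without the array that stood apart. Of all features, 6.46%, 5.08%, 4.57%, 7.92% and 9.47% were higher and 4.26%, 4.65%, 3.97%, 6.06% and 5.96% lower with vehicle. With RTA-408, 4.22%, 6.17%, 5.33%, 9.12% and 5.53% were higher and 1.57%, 4.79%, 4.36%, 6.67% and 4.71% lower. Trex2 was higher on day 7 by 4.16 with vehicle and by 3.93 with RTA-408 (limma, adjusted p = 8.35e-07 and 1.54e-06). Hal, histidase, which makes a sunscreen compound of the cornified layer, was higher by 5.61 with RTA-408 on day 14 (adjusted p = 7.56e-05) and by 3.07 with vehicle (adjusted p = 0.0167), or 5.45 without the array that stood apart (adjusted p = 1.95e-06). Padi1 and Padi3 were lower on day 7, at -3.50 and -6.00 with vehicle (adjusted p = 0.00204 and 0.000108). Of the 5 measured suprabasal keratins, 1 was called on day 7 in each irradiated arm, and the median differences of the list were -0.34 with vehicle and -0.35 with RTA-408. The one called, Krt1, was higher on day 7 by 1.64 with vehicle and by 1.80 with RTA-408 (adjusted p = 0.0104 and 0.00408).

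Among 13 measured regulators of terminal differentiation, 3 were higher and 1 lower on day 7 in irradiated against unirradiated vehicle skin. Fosl1 and Junb, a Fos and a Jun partner of AP-1, were higher by 2.65 and 1.85 (limma, adjusted p = 0.0195 and 0.0201). Ehf, an epithelial ETS factor, was higher by 3.29 and Gata3, a factor of epidermal barrier formation, was lower, at -2.46 (adjusted p = 0.00654 and 0.0448). The wound and stress genes of keratinocytes rose on the same day, 8 of 10 higher and 0 lower, where 2.69% of all features were called higher, with a median difference of 3.62. S100a8 and S100a9, the subunits of calprotectin, were higher by 6.29 and 6.68 (adjusted p = 0.0103 and 0.0149), and both genes are also made by neutrophils.

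Markers of other cells moved over the same days. The mean of the 10 macrophage markers was between 10.9 and 12.4 in irradiated vehicle skin on day 7 and 8.82 and 9.12 in unirradiated skin, with 4 of 10 called higher on day 7 and 10 of 10 on day 14, where 2.69% and 4.43% of all features were called higher. Without the array that stood apart, 7 of 10 were higher on day 14. The 8 measured neutrophil markers averaged 7.25 to 7.77 against 5.26 and 5.82 on day 7, with a median difference of 0.86. Of these, Elane, Ngp and Camp were at the level of the negative controls on all arrays. The 2 called higher were S100a8 and S100a9, which also stand on the list of wound and stress genes, and no other neutrophil marker was called. The 6 measured basal keratinocyte markers averaged 14.5 to 14.8 against 14.3 on both unirradiated arrays, with 3 called higher. Markers of 2 other compartments were lower. Of 7 measured sebaceous gland markers, 1 was called lower on day 7 and 5 on day 14, where 1.33% and 2.53% of all features were, with median differences of -2.98 and -3.44. Of 6 measured adipocyte markers, 0 were called on day 7 and 2 were lower on day 14. Without the array that stood apart, 0 of 7 sebaceous and 0 of 6 adipocyte markers were called on day 14, at medians of -3.50 and -0.33. The part of these cells in the day 7 differences of Sprr1a and Tgm1 and the day 14 difference of Tgm3 was not tested.

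**Figure D4:**
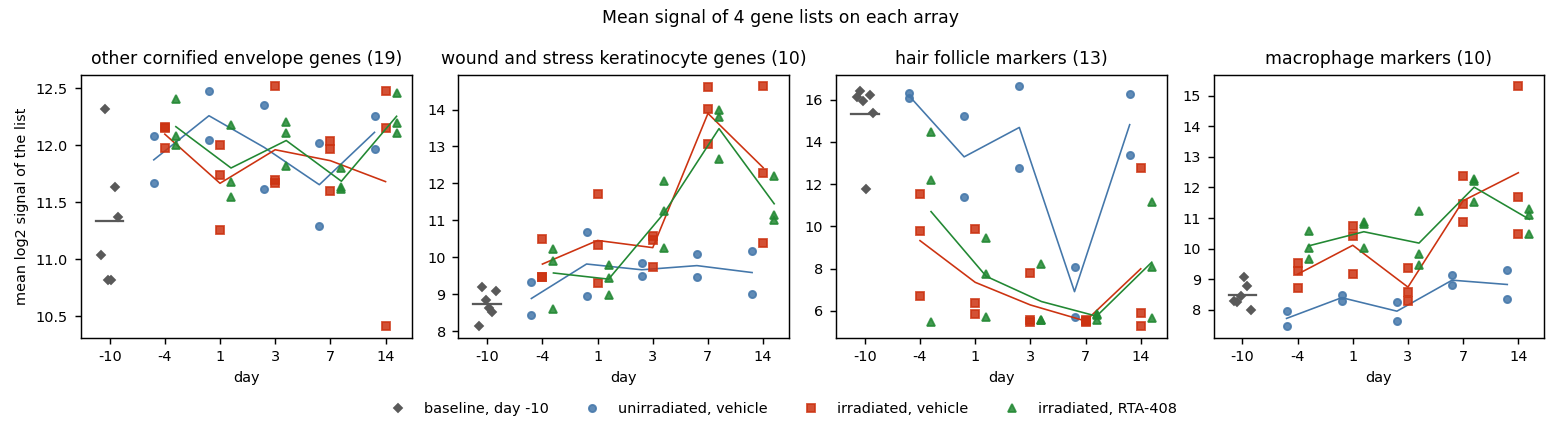
Mean log2 signal (vertical axes) of 4 gene lists on each array by day (horizontal axes), with the number of measured genes in each panel title and lines through the group means. Wound and stress genes averaged 13.1 to 14.6 in irradiated vehicle skin on day 7, and hair follicle markers 5.73 and 8.09 in unirradiated skin on that day.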

How the data were processed

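Clariom S arrays of rat skin (46) were analysed from the deposited table, in which the authors give a log2 signal for each feature of each array. Their normalization is not stated in the labels, the values run from 2.10 to 19.93, and no further normalization was applied. Per the labels' protocols, 100 ng of RNA (mean RNA integrity number 7.15) was amplified to biotin-labelled cDNA, with 2.5 ug going onto each array. Of 24834 features, 1646 controls were left out. The supplied annotation gave 15049 features 1 symbol and 8139 none. Precision is limited by how few arrays a group holds.

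All 46 arrays entered a single limma model (version 3.58.1, run under R 4.3.3) that gives each of the 16 groups its own mean, leaving 30 residual degrees of freedom, and variances were moderated. Two-sided p-values were adjusted within each comparison and day across the 23188 features (Benjamini-Hochberg), with calls at an adjusted p under 0.05. Whether an effect changed over the days was tested with limma's F-test, and means of each rat over the days were compared in a separate limma fit. A gene counted as not above the negative controls on an array when its signal did not exceed the median signal of 1153 negative control features there. The spike-in sets were read from the dap and ERCCmix2step35 controls.

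All 9 members were to be named. Of each list, up to 4 called genes with the largest differences in a comparison and day could be named, and the 5 nearest profiles of Sprr1a, Ivl and the member mean. Flg, also in that rule, has no feature. Members, lists and tests were chosen with earlier results of these data known. The promoter stretches are RefSeq's. Alternatives were quantile normalization, leaving out features whose mean was in the dimmest fraction of 0.25, weights for arrays, a random effect of rat, the replicate number or the spike-in set as a block, the compared groups alone, arrays within 1 spike-in set, and each array left out in turn. The scripts were tested on simulated data.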

Additional observations from a re-analysis of the deposited data

Results flagged for a closer look

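The baseline array of replicate 4 had a Tgm3 signal of 11.03, with the next at 12.99, a gap of 0.675 of the range of the 6 arrays. It was the lone array past the limit of Dixon's test among 7 groups tested, 1 for each member, and chance flags about 1 in 20 groups. The same array was the lowest of its group for all 7 measured members, among them Tgm1 (10.79) and Casp14 (7.99), and for the mean of the hair follicle markers (11.8).

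The difference between irradiated and unirradiated vehicle skin in Sprr1a and in Tgm1 varied between the days, with adjusted p of 0.00603 and 0.0339 (limma F-test over the 5 days). The second unirradiated rat was another animal from day 7 on, which cannot be fully told apart from a change over the days.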

How the results depend on the processing

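No value turned its direction after passing the test. Of the values under settings other than leaving out each array in turn, 1518 kept their side of the threshold, 27 lost a call, 30 gained one and 14 moved. A value moved when, without a call, its direction turned by at least its standard error. These settings include the day 14 array that stood apart left out of all groups. The counts of members called were as follows where they moved from those of all arrays. Without the dimmest fraction of 0.25 of the features, RTA-408 against baseline had 1 on day 3. With array weights, irradiated against unirradiated had 1 on day -4 and 1 on day 1, vehicle against baseline 2 on day 1 and 2 on day 3, and RTA-408 against baseline 1 on day 3. With the spike-in set as a block, vehicle against baseline had 0 on days -4, 1, 3 and 7 and 1 on day 14, RTA-408 against baseline 0 on days 1 and 7 and 1 on day 14, and unirradiated against baseline 0 on day 7. With the compared groups alone, irradiated against unirradiated had 3 on day -4 and 0 on day 14, vehicle against baseline 2, 2 and 1 on days -4, 3 and 14, RTA-408 against baseline 2, 1 and 1 on days 1, 3 and 7, and unirradiated against baseline 0 on day 7. Within set I, vehicle against baseline had 2 on day 1, and within set III, irradiated against unirradiated had 1 on day 7. With the day 14 array that stood apart left out of all groups, a choice made after seeing the data, irradiated against unirradiated had 1 on day 1 and RTA-408 against baseline 1 on day 3. The causes were not tested. Leaving out each array in turn gave 0 to 2 members for RTA-408 against vehicle on day 14, 1 to 2 and 0 to 2 for irradiated against unirradiated on days 7 and 14, and 0 to 2 for its change over the days. It gave 0 to 1, 0 to 2, 0 to 2, 1 to 3 and 2 to 3 for vehicle against baseline on days -4, 1, 3, 7 and 14, 0 to 1, 0 to 1, 1 to 2 and 2 to 3 for RTA-408 against baseline on days 1, 3, 7 and 14, and 0 to 1 for unirradiated against baseline on day 7. An array left out of an unirradiated group leaves 1, which is then assumed to vary like the other groups.

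Between the arms no same-numbered arrays are from the same rat, and their pairing was not borne out. Of 15 same-numbered pairs of RTA-408 and vehicle arrays, 3 had deviations that correlated above 0.1, with r between -0.378 and 0.254, and of 10 pairs of irradiated and unirradiated arrays 4 did. Of RTA-408 and baseline arrays, replicates 1 and 2 are from the same rats, with r between -0.480 and 0.346 over all 15 pairs. Vehicle replicates 1 and 2 are the rats of baseline replicates 3 and 4. For vehicle against baseline the replicate number therefore joins arrays of different rats, and calls lost or gained with it do not speak to pairing. With the replicate number as a block, vehicle against baseline had 2 members on day 1 and 1 on day 7, RTA-408 against baseline 1 on day 3 and 1 on day 7, the day 7 call of Tgm3 with vehicle being lost (1.38, adjusted p = 0.0683), and the other counts of members stayed within 1.5 times, the change of the radiation effect over the days with 3. The rat as a random block, with a consensus correlation of 0.00672, moved no count of members.

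Counts over all features moved more than those of members. For irradiated against unirradiated they were 1721, 488, 302, 932 and 1614 on the 5 days, with lows of 114, 79, 32, 123 and 0 and highs of 3825, 966, 957, 1418 and 2962 over the alternatives. Other comparisons moved as widely, such as vehicle against baseline on day 3, from 1980 to between 141 and 3056. Signals of Sprr3 near the negative controls and groups of 2 or 3 arrays limit what can be seen. The planned use of another feature of a member gave no value, since each measured member has 1 feature.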
